A study of Mus musculus with 8 samples.

Results

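The lysosome and autophagy genes described here are 51 genes taken by name from the table of Tsc1/Foxi1-dKO against WT kidneys, out of 26893 genes listed. They were chosen for what their proteins do, and 49 of them passed the filter on low counts, among 15912 genes tested. Poly(A) RNA of whole kidney was sequenced from 45-day-old mice. The 4 WT libraries came from C57BL/ 6 mice, for which no engineered allele is listed. The 4 dKO libraries are labelled as mice with floxed Tsc1 alleles (Tsc1f/f), an Aqp2 Cre transgene and a Foxi1 knockout, bred from Tsc1-KO and Foxi1-KO mice, and in 1 of them, labelled dKO replicate 4, the Foxi1 level goes against that label. Aqp2-Cre limits the loss of Tsc1 to principal cells of the collecting duct, and FOXI1 is the transcription factor that intercalated cells need to form. The deletion of Tsc1 therefore touches a small part of the cells in each RNA sample. The loss of Tsc1 and that of Foxi1 cannot be told apart in this comparison. No strain is given for the dKO mice, so a difference in strain background cannot be told apart from the genotype either. Fewer cells of a type and less RNA per cell cannot be told apart in whole-kidney RNA.

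Lysosomes degrade what cells take up or wrap in autophagosomes, with acid hydrolases that are routed there through the mannose 6-phosphate receptors. TSC1 and TSC2 restrain mTORC1, the kinase complex that sits on the lysosome surface when amino acids are present. Active mTORC1 phosphorylates the ULK1 kinase and so holds back autophagy. It also phosphorylates TFEB and TFE3, transcription factors of lysosomal and autophagy genes, through a branch that needs folliculin (FLCN) and the RagC and RagD GTPases. TFEB binds E-box sequences known as CLEAR elements. In the kidney, the proximal tubule takes up filtered protein and is rich in lysosomes.

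The promoter windows of the genes are shown first because CLEAR elements are the known docking sites of TFEB. RefSeq windows of 300 bases around gene starts (build GRCm38.p6) were matched by symbol for 44 of the 51 genes, in 51 windows. The core of the CLEAR element, TCACGTGA, which reads the same on both strands and contains the E-box CACGTG, was found in 4 of these windows (7.84%), against 0.974% of all 32851 windows. It lay in windows of Ctsa, Ctsd, Gla and Mcoln1. Stretches around the matches in Ctsd (chr7:142387904-142387941, minus strand), Mcoln1 (chr8:3500458-3500495, plus strand) and Gla (chrX:134601211-134601248 and chrX:134601178-134601215, minus strand) read as follows, 5′ to 3′, with the core in capitals.
Ctsd: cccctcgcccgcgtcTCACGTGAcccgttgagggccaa
Mcoln1: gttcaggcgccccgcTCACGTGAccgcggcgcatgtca
Gla, upstream match: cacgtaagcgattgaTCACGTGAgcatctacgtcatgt
Gla, downstream match: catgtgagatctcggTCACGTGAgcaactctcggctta

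Counted from the RefSeq starts, the core began 99 bases before the start in Ctsd and 46 bases before it in Mcoln1. In Gla it began 228 and 195 bases before the start. By the gene positions of the deposited table, which start farther upstream, the Ctsd and Mcoln1 stretches lie inside the genes. The E-box CACGTG, searched in the same way and counted also inside the core, was in 14 of the 51 windows (27.5%), against 7.15% of all windows. The M-box TCATGTG, searched on both strands and never itself a match to CACGTG, was in 5 windows (9.8%), against 3.77% of all windows. These are matches of letters and not measured binding. TFEB is known to regulate lysosomal and autophagy genes, and the members were chosen as such genes. A higher share than in all windows is therefore not a result about dKO or WT kidneys. The 14 tested members with an E-box had a median log2 fold change (dKO over WT) of -0.05, and the 28 tested members whose windows held none had -0.04. All 1300 tested genes with an E-box had a median of -0.0049.

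The windows of Gusb and Hexa, the members that passed the test, held no match to any of the 3 motifs. The 250 bases before their starts, which are the same in RefSeq and the deposited table, are given because the results turn on these genes. They lie at chr5:130003050-130003299 on the minus strand and chr9:59539290-59539539 on the plus strand.
Gusb: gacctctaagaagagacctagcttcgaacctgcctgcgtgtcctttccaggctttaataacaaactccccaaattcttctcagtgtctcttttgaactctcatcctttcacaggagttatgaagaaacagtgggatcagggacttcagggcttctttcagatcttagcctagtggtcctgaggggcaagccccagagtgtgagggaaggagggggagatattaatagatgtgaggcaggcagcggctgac
Hexa: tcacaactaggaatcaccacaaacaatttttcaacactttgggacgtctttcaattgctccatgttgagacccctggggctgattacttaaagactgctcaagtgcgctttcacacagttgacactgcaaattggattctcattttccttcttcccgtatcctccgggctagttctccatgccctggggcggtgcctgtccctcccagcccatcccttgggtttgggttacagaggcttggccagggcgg

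Total counts ran from 14791687 to 24973213 per library, so that 3 reads correspond to 0.121 to 0.207 CPM (reads of a gene per 1000000 reads of the scaled library). Kidney markers were abundant in every library, with Slc34a1 of the proximal tubule at 5369 CPM or more and Umod of the thick ascending limb at 2412 CPM or more. The library labelled dKO replicate 4 held Foxi1 at 45.9 CPM, above the 26.6 to 33.6 CPM of WT, while dKO replicates 1 to 3 had 1.33 to 1.56 CPM. The summed CPM of 7 intercalated-cell markers, Foxi1 among them, was 304.5 to 378 for WT, no more than 7.21 for dKO replicates 1 to 3, but 440 for that library, and Aqp6 and Atp6v1g3 were at 0 in dKO replicates 1 and 3. Wherever dKO replicate 4 is named, the library so labelled is meant. dKO replicate 1 had 0 reads from 4 Y-linked genes, where the other libraries had 2189 to 4380, and 11083 Xist reads, where the others had 0 to 11, which is the pattern of a female among males. Its 8 proximal tubule markers summed to 66.3% of the WT mean. By these genes, dKO replicates 1 and 4 came from other animals than dKO replicates 2 and 3. No label names the animal behind a library, so whether all 8 are separate animals is not known.

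Few of the lysosome and autophagy genes differed between dKO and WT kidneys past the test. Gusb, which encodes the lysosomal enzyme beta-glucuronidase, fell in dKO, and Hexa, which encodes the alpha subunit of beta-hexosaminidase, rose. At a threshold of 0.05 on the p adjusted over all tested genes (edgeR, quasi-likelihood), 1 member was higher and 1 was lower. That is 4.08% of the tested members, beside 2.28% of all tested genes in either direction, 1.16% higher and 1.12% lower. The other 47 tested members had log2 fold changes between -0.40 and 0.44, 20 of them positive and 27 negative, with standard errors (SE) of 0.07 to 0.26. Their smallest adjusted p was 0.0617. The median over all 49 tested members was -0.07, against 0.01 for all tested genes. Without dKO replicate 1 it was 0.0020, with 25 members positive and 24 negative, and 2 passed higher (Hexa and Vps18) and 1 lower (Gusb). Calls over all tested genes also rose without that library, from 184 to 303 higher and from 179 to 325 lower. Without dKO replicate 4, and without dKO replicates 1 and 4 together, only Gusb passed. Values of the groups did not overlap in 8 members (16.3%), against 12.1% of all tested genes. These were Ctsb, Ctsc, Ctsf, Hexa and Vps18 on the higher side, and Ctsz, Glb1 and Gusb on the lower side.

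**Figure D1:**
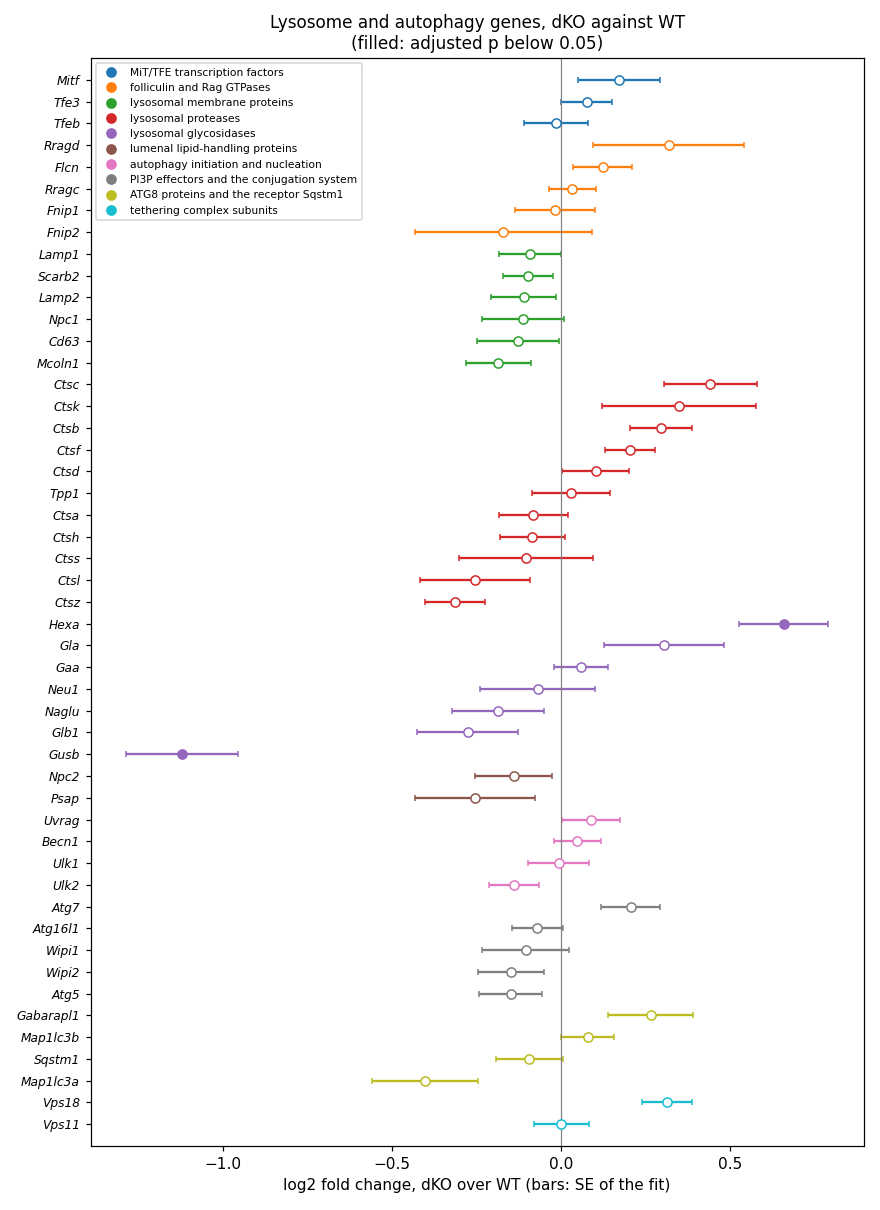
Log2 fold change of dKO over WT (x axis) for the 49 tested genes (y axis), coloured by role, with bars for the SE of the fit. Filled points passed the threshold of 0.05 (adjusted p): Gusb at -1.12 and Hexa at 0.66, while the other 47 lie between -0.40 and 0.44.

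Levels between genes can be compared only per gene length, as FPKM. In WT kidneys 9 members stood at 100 FPKM or more, 27 between 10 and 100, 13 between 1 and 10 and 2 below 1. Psap, whose product prosaposin is cut into the activator proteins of sphingolipid breakdown, was the most abundant at 821 ± 64.2 FPKM (SD, n = 4). Lamp1, a heavily glycosylated protein of the lysosomal membrane, followed at 456 ± 22.6 FPKM, and Gabarapl1, an ATG8 protein of autophagosomes, at 281 ± 38.1 FPKM. The regulators were scarce by comparison, with Tfeb at 5.81 FPKM, Tfe3 at 3.65 FPKM and Mitf at 2.13 FPKM. Replicates of these genes lay close together. The median coefficient of variation over the tested members was 7.88% in WT and 10.5% in dKO. Over all tested genes it was 12.2% and 14.6%. The comparison was not matched for level, and most members stood above the median FPKM of the tested genes.

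The transcription factors of the MiT/TFE family showed no difference past the test. Tfeb, the best known regulator of lysosomal genes, was at 28.9, 35.6, 34.1 and 33.3 CPM in WT replicates 1 to 4 and at 33.9, 28.7, 33.0 and 34.9 CPM in dKO replicates 1 to 4. The groups overlapped over nearly their whole range (log2 fold change -0.01, SE 0.09, adjusted p = 0.962 by edgeR). Tfe3 was at 33.9, 30.5, 35.9 and 35.2 CPM in WT and at 35.4, 35.2, 36.4 and 35.7 CPM in dKO (0.08, SE 0.08, adjusted p = 0.68 by edgeR). The dKO libraries spanned less than the WT libraries. Mitf, the member known for its part in melanocytes and osteoclasts, was at 13.8, 12.2, 13.1 and 13.8 CPM in WT and at 15.6, 12.5, 13.7 and 17.6 CPM in dKO (0.17, SE 0.12, adjusted p = 0.534 by edgeR). Its highest values were in dKO replicate 1 and the library labelled dKO replicate 4, and the other dKO values lay within the WT range. Its log2 fold change was 0.08 without dKO replicate 4 and -0.0034 without replicates 1 and 4. Of these 3 genes, 0 passed, 0 had an unadjusted p under 0.05, and DESeq2 and limma-voom called 0 of them. A transcript level says nothing of where these proteins were in the cell, which was not measured here.

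Folliculin and the Rag GTPases, which convey amino acid supply to mTORC1, held no member past the test. Flcn was at 55.6, 54.1, 55.9 and 57.8 CPM in WT and at 57.4, 65.3, 53.0 and 67.5 CPM in dKO (log2 fold change 0.12, SE 0.09, adjusted p = 0.536 by edgeR). The spread of Flcn was wider in dKO, with replicate 3 below every WT library. Rragc, the GTPase RagC, had the highest FPKM of this group and was at 70.0, 70.7, 64.5 and 67.8 CPM in WT and at 73.1, 66.4, 72.8 and 67.0 CPM in dKO (0.03, SE 0.07, adjusted p = 0.871 by edgeR). Its relative Rragd was at 47.5 to 56.0 CPM in WT and at 50.8, 47.7 and 63.7 CPM in dKO replicates 2 to 4, but at 102.8 CPM in dKO replicate 1. Rragd thus stood apart in a single library (0.32, SE 0.22, adjusted p = 0.532 by edgeR), and the value without it was 0.02. Fnip2, a folliculin partner, ran from 79.3 to 176.6 CPM in dKO and from 123.8 to 199.4 CPM in WT, with overlap (-0.17, SE 0.26, adjusted p = 0.81 by edgeR). Fnip1, the other partner, had 48.8 to 66.9 CPM over all libraries. Of the 5 genes 0 passed by edgeR or DESeq2, and 0 had an unadjusted p under 0.05.

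All 6 tested membrane proteins of the lysosome had small negative fold changes, none of which passed the test. Their log2 fold changes ran from -0.19 to -0.09, with 0 past the threshold, 0 at an unadjusted p under 0.05 and 0 called by DESeq2. All 6 were negative also without dKO replicate 1 and without dKO replicates 1 and 4. Of 21 other lysosomal membrane and sorting proteins, 12 were positive and 9 negative. Lamp1 was at 1269, 1272, 1188 and 1152 CPM in WT and at 1077, 1121, 1240 and 1139 CPM in dKO (-0.09, SE 0.09, adjusted p = 0.675 by edgeR). Only dKO replicate 3 lay within the WT range, and the gene overlaps Grtp1 on the other strand (67.2 CPM). Mcoln1, the lysosomal calcium channel whose promoter holds the CLEAR core, was at 86.6, 72.5, 71.5 and 72.1 CPM in WT and at 63.1, 59.4, 69.1 and 74.5 CPM in dKO (-0.19, SE 0.10, adjusted p = 0.368 by edgeR). The library labelled dKO replicate 4 overlapped the WT libraries. Lamp2, Cd63, Scarb2, which carries beta-glucocerebrosidase to the lysosome, and the cholesterol exporter Npc1 had adjusted p from 0.553 to 0.702. Gpnmb, a glycoprotein of macrophages and melanocytes that is widely used as a readout of TFEB and TFE3, was almost absent: 7, 2, 6 and 2 reads in WT replicates 1 to 4 and 20, 4, 5 and 8 reads in dKO replicates 1 to 4. It was too low for the filter and was not tested. Its highest level was 0.885 CPM, in dKO replicate 1.

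**Figure D2:**
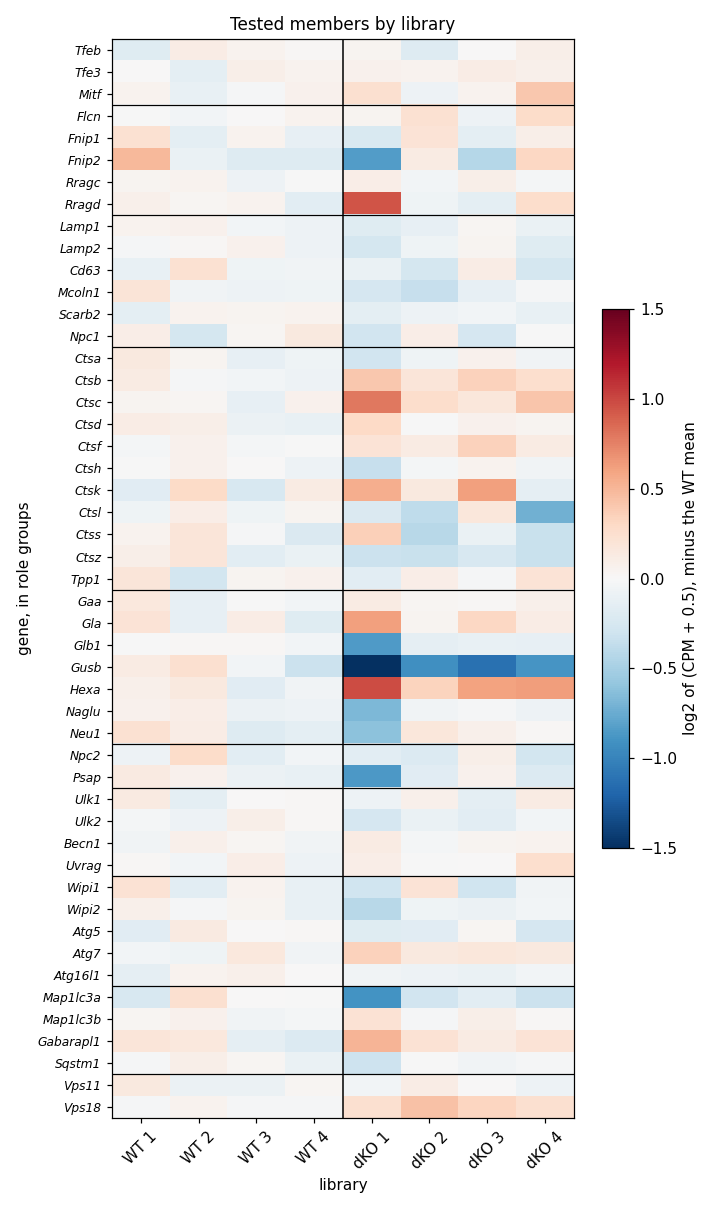
Level of each of the 49 tested genes (rows, in role groups) in each library (columns), as log2 of (CPM + 0.5) minus the WT mean. Colours end at 1.5 in either direction; Gusb is low in all 4 dKO libraries, and dKO replicate 1 holds the lowest value of 17 genes and the highest of 12.

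Among the 11 lysosomal proteases, 4 cathepsins (36.4%) lay on one side of WT in all dKO libraries, beside 12.1% of all tested genes. Of the 11, 0 passed the test. At an unadjusted p under 0.05 there were 3 higher and 1 lower, 36.4% of the 11 beside 16.8% of all tested genes. DESeq2 called Ctsb higher and Ctsz lower, where it called 4.94% of all genes with an adjusted p. Ctsb, the abundant cysteine protease cathepsin B, was at 654.6, 592.9, 585.8 and 571.3 CPM in WT and at 792.8, 683.4, 763.1 and 713.3 CPM in dKO. Every dKO library was above every WT library (log2 fold change 0.30, SE 0.09, adjusted p = 0.134 by edgeR and 0.0211 by DESeq2). Ctsb overlaps Fdft1 on the other strand (26.3 CPM, log2 fold change 0.38), and their reads cannot be told apart there if strand was not counted. Ctsz, cathepsin Z, was at 168.9, 180.6, 143.0 and 148.3 CPM in WT and at 127.1, 126.9, 134.9 and 126.4 CPM in dKO. The dKO values were close together and below all WT values (-0.31, SE 0.09, adjusted p = 0.106 by edgeR and 0.0364 by DESeq2). Ctsz likewise overlaps Nelfcd (37.1 CPM, log2 fold change 0.00).

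Ctsc, or dipeptidyl peptidase I, which activates serine proteases of leukocytes, was at 17.0, 16.8, 15.1 and 17.3 CPM in WT and at 29.1, 19.99, 18.6 and 22.3 CPM in dKO. It was highest in dKO replicate 1 (log2 fold change 0.44, SE 0.14, adjusted p = 0.137 by edgeR), and the value was 0.29 without that library and 0.22 without replicates 1 and 4. Ctsf was at 75.8, 81.1, 75.9 and 77.3 CPM in WT and at 89.6, 84.2, 98.6 and 84.5 CPM in dKO, again without overlap (0.20, SE 0.07, adjusted p = 0.198 by edgeR). Ctsd, the main aspartic protease and the most abundant of the group by FPKM, was at 356.4, 350.7, 309.6 and 305.5 CPM in WT and at 406.1, 329.1, 344.4 and 339.9 CPM in dKO (0.10, SE 0.10, adjusted p = 0.667 by edgeR). Its groups overlapped, with dKO replicate 1 on top, and the log2 fold change was 0.03 without that library. Of the proteases known from macrophages and osteoclasts, Ctss was at 5.08 to 9.03 CPM and Ctsk at 2.90 to 5.64 CPM over all libraries, with adjusted p of 0.852 and 0.492 by edgeR. A list of 14 macrophage and leukocyte markers, 13 of them tested, had 0 past the threshold, with summed levels of 297 to 392 CPM in WT and 281 to 371 CPM in dKO. Of the 13, 9 were positive and 4 negative, with a median log2 fold change of 0.15. Cd74, which made the largest part of the sum, had a negative one (-0.13). Lyz2 and Cd14 were higher in every dKO library than in any WT library (0.46 and 0.81, adjusted p = 0.152 and 0.0899 by edgeR). Ctsl was at 298.7 to 554.1 CPM in dKO and 471.1 to 529.1 CPM in WT (adjusted p = 0.477 by edgeR). Ctsa, Ctsh and Tpp1 had adjusted p from 0.718 to 0.934.

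The glycosidases held the only members past the threshold, and these moved in opposite directions. Gusb (ENSMUSG00000025534, chromosome 5, 129989011 to 130003049, minus strand) was at 126.7, 138.4, 113.6 and 92.95 CPM in WT replicates 1 to 4. In dKO replicates 1 to 4 it was at 38.98, 61.3, 53.6 and 63.1 CPM. All dKO libraries lay well below all WT libraries, and the mean went from 117.9 ± 19.5 to 54.2 ± 10.98 CPM (SD, n = 4 each). Gusb fell by 1.12 on the log2 scale (SE 0.17, adjusted p = 0.00893 by edgeR). The library labelled dKO replicate 4, which held Foxi1 transcripts, had Gusb at the level of dKO replicates 2 and 3. Its log2 fold change was -0.99 without dKO replicate 1 (adjusted p = 0.00139 by edgeR) and -1.20 without the library labelled replicate 4 (adjusted p = 0.0101). The call held in all 17 alternatives run, with log2 fold changes from -1.22 to -0.99. Of the 57 other tested genes within 5 Mb of Gusb, 0 passed the threshold, beside 1.18% of tested genes on chromosome 5. Over all tested genes the share was 2.28%, and 57 genes are too few to tell 0 from such shares. Within 5 Mb of Hexa, 2 of 103 other tested genes passed (1.94%).

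Hexa (ENSMUSG00000025232, chromosome 9, 59539540 to 59565109, plus strand) was at 39.3, 41.6, 33.1 and 36.0 CPM in WT and at 74.0, 47.3, 57.2 and 58.2 CPM in dKO. The groups did not overlap, and dKO replicate 1 was the highest. Mean CPM was 37.5 ± 3.70 in WT and 59.2 ± 11.1 in dKO (SD, n = 4 each), a rise of 0.66 on the log2 scale (SE 0.13, adjusted p = 0.0315 by edgeR). The call stood near the threshold: 9 of 17 alternatives kept it, their log2 fold changes ran from 0.48 to 0.75, and the adjusted p ran from 0.000892 (DESeq2) to 0.111. It was lost without any of the 4 WT libraries (adjusted p = 0.0668 to 0.111), without dKO replicate 3 (adjusted p = 0.0595), without the library labelled replicate 4 (adjusted p = 0.0553) and on log2 of FPKM + 1 (limma, adjusted p = 0.0522). Without dKO replicate 1 it was kept (log2 fold change 0.53, adjusted p = 0.0163), and without replicates 1 and 4 together it was lost (log2 fold change 0.48, adjusted p = 0.061).

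**Figure D3:**
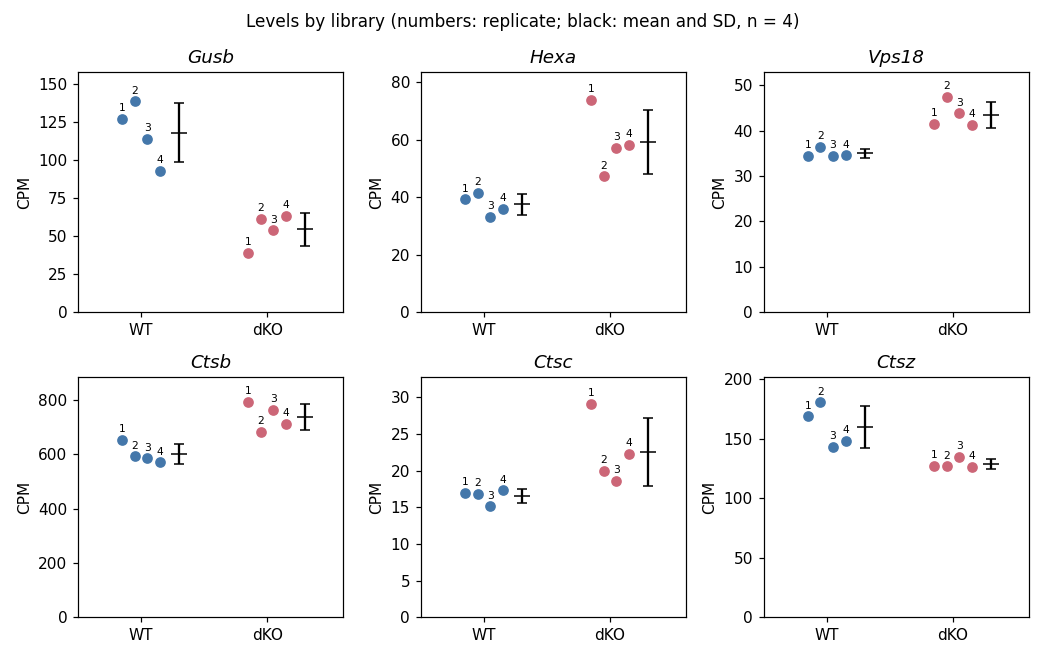
CPM (y axis, from 0) of Gusb, Hexa, Vps18, Ctsb, Ctsc and Ctsz in each WT and dKO library, numbered by replicate, with the mean and SD of each group (n = 4) in black. In each of these 6 genes the 4 dKO libraries lie all on one side of the 4 WT libraries, lower for Gusb and Ctsz and higher for the others, and only Gusb and Hexa passed the test. The 6 were drawn from the 8 members without overlap (16.3% of the tested members, beside 12.1% of all tested genes).

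The other glycosidases each had their lowest or highest dKO value in dKO replicate 1, and 0 of these 5 passed by edgeR or DESeq2 or had an unadjusted p under 0.05. Neu1, the sialidase that removes terminal sialic acid, was at 740.6, 682.6, 552.9 and 569.4 CPM in WT and at 413.1, 708.6, 664.0 and 640.5 CPM in dKO (log2 fold change -0.07, SE 0.17, adjusted p = 0.893 by edgeR). Apart from replicate 1, its dKO values lay within the WT range, and the log2 fold change turned to 0.08 without that library. Glb1, which encodes beta-galactosidase, was at 219.7 to 228.8 CPM in WT, at 204.8 to 208.3 CPM in dKO replicates 2 to 4 and at 124.9 CPM in dKO replicate 1, without overlap (-0.28, SE 0.15, adjusted p = 0.393 by edgeR). Naglu, which cleaves heparan sulfate, was at 84.3 to 95.9 CPM in WT, at 84.5 to 88.2 CPM in dKO replicates 2 to 4 and at 55.7 CPM in dKO replicate 1. Without that library the log2 fold change went from -0.28 to -0.13 for Glb1 and from -0.19 to -0.05 for Naglu. Glb1 shares its strand with the overlapping gene Tmppe (17.3 CPM). The glycogen-degrading Gaa and the alpha-galactosidase Gla, the enzyme lacking in Fabry disease, had positive fold changes that did not pass (adjusted p = 0.78 and 0.432 by edgeR).

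Of the lipid-handling proteins of the lysosome lumen, Psap also had its lowest value in dKO replicate 1, and Npc2 did not. Neither passed. Psap was at 2461, 2345, 2123 and 2091 CPM in WT and at 1237, 2006, 2361 and 1957 CPM in dKO. Replicate 1 was low by a wide margin, and the other dKO libraries overlapped WT or lay just below it (log2 fold change -0.25, SE 0.18, adjusted p = 0.52 by edgeR). It was -0.10 without replicate 1 and -0.04 without replicates 1 and 4. Npc2, which passes cholesterol to NPC1, was at 114.0 to 153.6 CPM in WT and 105.0 to 135.3 CPM in dKO (adjusted p = 0.595 by edgeR).

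In dKO replicate 1, Psap was at 54.8% of the WT mean, Glb1 at 55.4%, Naglu at 62.1%, Neu1 at 64.9% and Gusb at 33.1%. The summed proximal tubule markers were at 66.3% there and at 92.3% to 97.6% in the other dKO libraries. Of the 8 markers, 4 had their lowest value of all libraries in dKO replicate 1: Slc34a1, Slc22a6, Aqp1 and Slc27a2. The endocytic receptors Lrp2 and Cubn did not, and neither did Slc5a12. Slc5a2 went the other way, at 589.3 CPM in dKO replicate 1 against 427.8 to 530.7 CPM in WT, so the sum does not stand for every marker. The 5 principal-cell markers summed to 321% of the WT mean in that library, most of it from Aqp2, and the 3 podocyte markers to 199.9%, the 3 endothelial markers to 136.9% and the intercalated-cell markers to 1.9%. Part of this was shared by other dKO libraries. The intercalated-cell sum was 1.84% and 2.05% in dKO replicates 2 and 3. Podocyte sums were 122.1% to 125.3% in dKO replicates 2 to 4, and principal-cell sums 120.1% to 139.7%. The endothelial sum was 126.6% in dKO replicate 3. dKO replicate 1 also has the read pattern of a female among males. The part of the markers or of sex in the levels of the lysosomal genes was not tested. In a single library they cannot be told apart. In Gusb the other 3 dKO libraries were also low, at 45.5% to 53.5% of the WT mean. Over the 49 tested members, dKO replicate 1 had the lowest value in 17 (34.7%, against 22.3% of all tested genes) and the highest in 12 (24.5%, against 24% of all tested genes). The lowest values took in 4 of 7 glycosidases, 4 of 6 membrane proteins and 2 of 11 proteases. The highest took in 4 of 11 proteases and 2 of 7 glycosidases. These 2 were Gla and Hexa, with Hexa at 74.0 CPM there against a WT mean of 37.5 CPM.

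**Figure D4:**
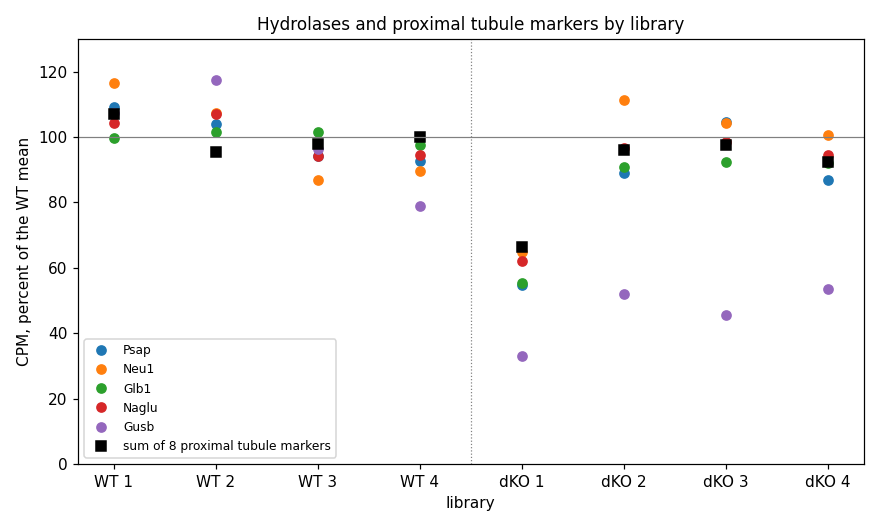
CPM as a percentage of the WT mean (y axis, from 0) in each library (x axis) for Psap, Neu1, Glb1, Naglu and Gusb (circles) and for the sum of 8 proximal tubule markers (black squares). In dKO replicate 1 the sum is at 66.3% and the genes at 33.1% to 64.9%, and in dKO replicates 2 to 4 only Gusb, at 45.5% to 53.5%, is far below the WT mean. The markers in the sum did not all fall in dKO replicate 1, where Slc5a2 was above every WT library. The genes drawn are among the 17 members with their lowest value in dKO replicate 1, and 12 members had their highest value there.

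Fold changes of the autophagy genes were small and of both signs. Of 15 tested autophagy and tethering genes, 0 passed by edgeR, 3 had an unadjusted p under 0.05 (Vps18 and Atg7 higher, Map1lc3a lower, 20% of the 15 beside 16.8% of all tested genes), DESeq2 called Vps18 and limma-voom called 0. Ulk1, the kinase that starts autophagy, was at 120.6, 99.0, 110.1 and 110.8 CPM in WT and at 104.1, 115.6, 99.0 and 119.5 CPM in dKO, with full overlap (log2 fold change -0.01, SE 0.09, adjusted p = 0.981 by edgeR). Its relative Ulk2 was at 60.6, 58.6, 65.5 and 62.5 CPM in WT and at 51.8, 57.4, 55.1 and 60.1 CPM in dKO (-0.14, SE 0.07, adjusted p = 0.381 by edgeR). Only the library labelled replicate 4 overlapped WT. Becn1 and Uvrag, parts of the lipid kinase complex that marks the growing membrane, had adjusted p of 0.79 and 0.665. Atg9b, a lipid scramblase of the early membrane, had 4 to 9 reads in WT and 4 to 23 reads in dKO and was too low to be tested.

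Of the genes that read that lipid mark and attach ATG8 proteins to the membrane, Atg5 had the highest FPKM. It was at 35.7, 44.1, 40.4 and 40.5 CPM in WT and at 35.1, 35.4, 40.8 and 33.5 CPM in dKO (log2 fold change -0.15, SE 0.09, adjusted p = 0.464 by edgeR), with overlapping groups. Atg7, the enzyme that activates ATG8 proteins, was at 25.95, 25.5, 29.8 and 25.7 CPM in WT and at 34.0, 29.6, 30.0 and 29.6 CPM in dKO. WT replicate 3 reached the dKO range (0.21, SE 0.09, adjusted p = 0.263 by edgeR). Atg16l1, Wipi1 and Wipi2 had adjusted p from 0.492 to 0.749.

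The ATG8 proteins, which coat autophagosomes, had fold changes of both signs, and none passed. Map1lc3a was at 100.3, 140.0, 119.1 and 118.7 CPM in WT and at 63.5, 96.8, 106.5 and 95.0 CPM in dKO. It was lowest in dKO replicate 1, with dKO replicate 3 above WT replicate 1 (log2 fold change -0.40, SE 0.16, adjusted p = 0.229 by edgeR), and the value without dKO replicate 1 was -0.27. Map1lc3b, the LC3B form used as a marker of autophagosomes, was at 175.8, 180.1, 165.6 and 168.7 CPM in WT and at 200.4, 171.0, 182.9 and 174.2 CPM in dKO (0.08, SE 0.08, adjusted p = 0.68 by edgeR), and it overlaps Zcchc14 on the other strand (110.5 CPM). Gabarapl1 was at 638.1, 624.9, 510.8 and 489.1 CPM in WT and at 803.2, 654.2, 612.1 and 648.9 CPM in dKO (0.26, SE 0.13, adjusted p = 0.328 by edgeR). Its dKO values were high, above all of WT except in replicate 3, and without replicate 1 the log2 fold change was 0.17. Sqstm1, the p62 receptor that is itself consumed by autophagy, was at 623.8, 668.8, 643.0 and 590.2 CPM in WT and at 509.3, 626.5, 609.7 and 621.6 CPM in dKO (-0.09, SE 0.10, adjusted p = 0.695 by edgeR). Only dKO replicate 1 lay outside the WT range, and the log2 fold change was -0.03 without it.

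Vps11 and Vps18 encode subunits shared by complexes that tether endosomal and lysosomal membranes for fusion. Vps18 was at 34.5, 36.5, 34.5 and 34.6 CPM in WT and at 41.6, 47.5, 43.9 and 41.3 CPM in dKO. It had the smallest p after Hexa and no overlap between groups (log2 fold change 0.31, SE 0.07, adjusted p = 0.0617 by edgeR), passed without dKO replicate 1 (adjusted p = 0.047 by edgeR) and passed in DESeq2 (adjusted p = 0.0241), and in no other alternative. Vps18 (119288740 to 119298453) lies on chromosome 2, where 4.68% of tested genes passed the threshold. Within 5 Mb of it 14 of 103 other tested genes did (13.6%). The part of this position in its level was not tested. Vps11, on chromosome 9, was at 62.4, 52.8, 53.1 and 57.8 CPM in WT and at 55.0, 60.9, 56.7 and 53.6 CPM in dKO (0.00063, SE 0.08, adjusted p = 0.998 by edgeR).

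The wider pathway was read from lists of 106 other lysosome and autophagy genes, all of them tested. Of these, 0 passed by edgeR, against 2.28% of all tested genes, and 0 by limma-voom. DESeq2 called 4 of the 106, where it called 4.94% of all genes with an adjusted p. An unadjusted p under 0.05 by edgeR was found for 23, 12 higher and 11 lower (21.7%, against 16.8% of all tested genes). The median log2 fold change of the 106 genes was -0.01. Of 27 other hydrolases and activators 13 were positive, of 21 membrane and sorting proteins 12, of 15 subunits of the Ragulator, Rag and GATOR complexes 4, of 25 autophagy genes 12 and of 18 receptors and fusion factors 7. The 4 genes called by DESeq2, named after their values were seen, were all lower in dKO: M6pr, Cd164, Atg3 and Snap29. M6pr, the cation-dependent mannose 6-phosphate receptor that sorts hydrolases to lysosomes, was at 249.6, 279.9, 271.1 and 257.6 CPM in WT and at 190.1, 219.2, 218.7 and 214.2 CPM in dKO. All dKO values were below all WT values (log2 fold change -0.33, SE 0.08, adjusted p = 0.0721 by edgeR and 0.00487 by DESeq2). Without dKO replicate 1, and also without replicates 1 and 4 together, Dpp7 was called higher and Galns lower by edgeR (adjusted p = 0.00761 and 0.0108 without replicate 1).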

How the data were processed

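Kidney RNA from both genotypes was poly(A)-selected and sequenced, 4 libraries each. Alignment used HISAT2 2.0.4 and counting HTSeq 0.9.1, per the labels, and the build and strand setting are not given in the sources used here. All 51 members had a GENCODE M21 (GRCm38) position under the same identifier, 49 with identical start and end. The table deposited by the authors holds raw counts per gene, a signal made by the authors from counts and library size factors, and FPKM, which the authors scaled by gene length. Its fold changes and p-values were not used. dKO replicates are numbered in accession order.

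Genes passed filterByExpr (minimum count 10, minimum total count 15) and TMM scaling. The main test was robust, two-sided quasi-likelihood (edgeR 4.0.16, R 4.3.3), Benjamini-Hochberg adjusted over the tested genes and checked on simulated data. SE is the size of the log2 fold change divided by the square root of F. The alternatives were RLE factors, upper-quartile factors, DESeq2 (1.42.0), voom (limma 3.58.1), no filter, 1 CPM in 4 libraries, no robust estimation, log2 of deposited FPKM + 1, each library left out, and dKO replicates 1 and 4 left out. Values in every library are given for members past the threshold, the 12 members with the smallest p, 8 fixed by name and the member of highest FPKM in each of 10 role groups. Members and lists were chosen with earlier results of these data known. Dixon's ratio was used to find libraries far from their group.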

Additional observations from a re-analysis of the deposited data

Results flagged for a closer look

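In 12 of 102 sets of 4 libraries (51 members in 2 groups), 1 library lay farther from the others than Dixon's ratio allows; chance does so in about 1 in 20 sets. No explanation was weighed. In dKO replicate 1, Glb1 (125 CPM), Naglu (55.7 CPM), Wipi2 (122 CPM) and Sqstm1 (509 CPM) were far below the other dKO libraries, and Atg7 (34.0 CPM) was far above them. Ctsz in dKO replicate 3 (135 CPM) was above the other dKO libraries. In WT replicate 1, Fnip2 (199 CPM) and Mcoln1 (86.6 CPM) were high and Scarb2 (58.5 CPM) was low. In WT replicate 2, Cd63 (859 CPM) and Vps18 (36.5 CPM) were high. In WT replicate 3, Atg7 (29.8 CPM) was high.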

How the results depend on the processing

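Of the members, 1 passed higher and 1 lower in the reported fit. With DESeq2 3 were higher and 2 lower, and with log2 of FPKM + 1, or without dKO replicates 1 and 4 together, 0 were higher (Hexa was lost). Leaving out each library gave 0 to 2 higher: 2 without dKO replicate 1, and 0 without any WT replicate, dKO replicate 3 or dKO replicate 4. Among the other pathway genes, 0 in the reported fit, DESeq2 called 4 lower, leaving out each library gave 0 to 1 higher and 0 to 1 lower (1 each without dKO replicate 1), and without dKO replicates 1 and 4 there was 1 higher and 1 lower. Over all genes, 184 passed higher and 179 lower. DESeq2 gave 505 and 460, and without dKO replicates 1 and 4 there were 289 lower. Leaving out each library gave 57 to 303 higher and 78 to 325 lower, the highest counts without dKO replicate 1 and the lowest without a WT replicate. The median of the MiT/TFE genes went from 0.08 to -0.0034 without dKO replicates 1 and 4. The cause of these differences was not tested. Gusb was called in every alternative run, and no called result changed direction. No paired analysis was possible because the labels number the libraries of both groups without a shared number. Gpnmb and Atg9b had too few reads for a test at this depth.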
